A study of Mus musculus with 6 samples.

Results

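The miR-99/100 and miR-125 families are miRNAs, short RNAs that pair with mRNAs and lower their translation or stability. Of the 2009 names in the deposited table, 8 belonged here, taken by exact name: both arms of miR-99a, miR-99b and miR-125a, and the 5p arms of miR-100 and miR-125b. They were measured in 3 ischemia-reperfusion (I/R) and 3 sham male mouse hearts. The labels give the I/R treatment as ischemia for 30 min and reperfusion for 1 h. I/R hearts were isolated, perfused on a Langendorff system, which supplies the heart through the aorta, stopped with Tomas cardioplegia for 30 min and reperfused for 1 h. Sham hearts were isolated and perfused in the same way but kept beating. The labels give no strain, age or genotype for either group, and they number the hearts 1 to 3 as biological replicates. Since the libraries come from whole heart, fewer cells of a type and less RNA per cell cannot be told apart.

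A miRNA finds its targets mainly through its seed, bases 2 to 8 from the 5′ end. Members of the miR-99/100 family share a seed and are known to repress Mtor, the kinase that couples nutrients to growth. miR-125 is the vertebrate counterpart of lin-4, a developmental timing miRNA of Caenorhabditis elegans, and miR-125b is known to repress the cell death genes Bak1 and Trp53. Hairpins of both families lie beside let-7 hairpins, and let-7 is itself a timing miRNA that accumulates as cells differentiate.

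The mature sequences show which members can be expected to read the same targets. All 8 names matched RefSeq's miRNA table (GRCm38.p6). Each sequence is written 5′ to 3′ with its seed in capitals, the 5p arms first. The prefix mmu-, for mouse, is mostly left off in the text.
mmu-miR-99a-5p (chr16:77598940-77598961, plus strand): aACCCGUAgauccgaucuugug
mmu-miR-100-5p (chr9:41531437-41531458, plus strand): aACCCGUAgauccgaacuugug
mmu-miR-99b-5p (chr17:17830194-17830215, plus strand): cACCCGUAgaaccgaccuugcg
mmu-miR-125a-5p (chr17:17830817-17830840, plus strand): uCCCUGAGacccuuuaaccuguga
mmu-miR-125b-5p (chr9:41581940-41581961 and chr16:77646279-77646300, plus strand): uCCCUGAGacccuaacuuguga
mmu-miR-99a-3p (chr16:77598977-77598997, plus strand): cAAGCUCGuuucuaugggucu
mmu-miR-99b-3p (chr17:17830232-17830253, plus strand): cAAGCUCGugucuguggguccg
mmu-miR-125a-3p (chr17:17830855-17830876, plus strand): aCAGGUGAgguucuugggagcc

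The 5p arms fell into 2 seed groups, and the 3p arms of miR-99a and miR-99b shared a seed of their own. Counted from 1 at the 5′ end, miR-99a-5p and miR-100-5p differed by 1 substitution, U16A. From miR-99a-5p to miR-99b-5p there were 4, A1C, U11A, U16C and U21C, none of them in the seed. miR-125a-5p and miR-125b-5p were identical over their first 13 bases. How reads that match several names were counted is not given in the sources used here. The split of reads between miR-99a-5p and miR-100-5p carries that limit. So does the split between let-7e-5p and let-7a-5p, which have nearly the same sequence.

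The hairpins form 3 clusters on the plus strand. On chromosome 16, Mir99a and Mirlet7c-1 lie 656 bases apart and Mir125b-2 lies 46.5 kb further on, all in introns of the noncoding host gene Mir99ahg. On chromosome 17, Mir99b, Mirlet7e and Mir125a lie within Spaca6, a gene needed for sperm and egg to fuse, with gaps of 94 and 367 bases. Mir99b and Mirlet7e are in introns of Spaca6, and Mir125a overlaps an exon of it (GENCODE M21, GRCm38). On chromosome 9, Mir100 and Mirlet7a-2 lie 5.2 kb apart and Mir125b-1 lies 45.1 kb beyond, in introns of the noncoding gene 3110039I08Rik. Exons of further annotated genes overlap some hairpins as well. They are Gm28119 at Mir125b-1 and C130023A14Rik at Mir125b-2 on the same strand, and Gm48742 at Mir100 on the opposite one. The strand setting of the counting was not given, so reads from opposite strands cannot be told apart.

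Recovered totals were 7874103 to 8196102 reads per I/R library and 8099411 to 9197869 per sham library, and levels are given as reads per 1000000 (RPM). Cardiac muscle markers (miR-1a-3p, miR-133a-3p, miR-208a-3p and miR-499-5p) summed to 357828 to 383230 RPM in I/R and 385458 to 389856 RPM in sham hearts. All 4 were detected in every library. Nearly all of that sum was miR-1a-3p, at 351573 to 375821 RPM in I/R and 378281 to 382877 RPM in sham hearts. miR-133a-3p, miR-208a-3p and miR-499-5p each overlapped between the groups. The mean of miR-499-5p was slightly higher in I/R (5679 against 5602 RPM), and the means of miR-133a-3p and miR-208a-3p were lower. Both red blood cell markers together stayed at 1.52 to 5.26 RPM in I/R and 3.33 to 6.85 RPM in sham hearts. The fibroblast markers (miR-199a-3p, miR-199a-5p and miR-214-3p) summed to 1801, 1991 and 2129 RPM in I/R and 1357, 1821 and 1777 RPM in sham hearts, and the leukocyte markers to 86.8 to 89.0 RPM and 77.1 to 102.5 RPM. The liver miRNA miR-122-5p was at 3.67 to 4.32 RPM in I/R and 3.05 to 3.58 RPM in sham hearts. Of the brain miRNAs, miR-124-3p was at 0 in every library and miR-9-5p was at 90.8 to 146 RPM in I/R and 81.1 to 132 RPM in sham hearts. One library of each group stood apart in several values below, I/R replicate 3 and sham replicate 2.

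The 5p arms with the miR-99/100 seed held far more reads than those with the miR-125 seed. The 3 of the miR-99/100 seed summed to 94217, 97703 and 95214 RPM in I/R replicates 1 to 3, and to 94914, 85698 and 96059 RPM in sham replicates 1 to 3. They averaged 9.57 ± 0.18% of all reads in I/R and 9.22 ± 0.57% in sham hearts (SD, n = 3 each), a difference smaller than the spread between sham hearts. The 2 5p arms of the miR-125 seed summed to 5804, 5579 and 6240 RPM in I/R and to 5005, 4325 and 5322 RPM in sham hearts, or 0.587 ± 0.034% and 0.488 ± 0.051% of all reads (SD, n = 3 each). In RPM the lowest I/R sum of the miR-125 seed lay above the highest sham sum. Of the 409 single names tested below, 46 (11.2%) were separated in that direction. miR-125b-5p, which held most of this sum, was among them, so the sum is not a separate result. miR-125a-5p overlapped between the groups. The log2 ratio of its group means was 0.27, and 0.16 with median-ratio scaling, under which overlap was not checked. These sums are descriptions of chosen members and carry no test.

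Within each seed group 1 arm held most of the reads. miR-99a-5p made up 81.8% to 85.5% of the miR-99/100 seed in I/R hearts and 85.2% to 86.8% in sham hearts. miR-100-5p followed with 10.4% to 12.4% in I/R and 9.54% to 10.7% in sham hearts, and miR-99b-5p with 3.74% to 5.82% and 3.66% to 4.05%. In the miR-125 seed, miR-125b-5p held 67.4% to 74.5% in I/R and 68.7% to 77.5% in sham hearts, and miR-125a-5p held the rest. The same seed is carried by 3 other mouse names in RefSeq: miR-351-5p, at 46.2 to 51.4 RPM in I/R and 36.5 to 41.7 RPM in sham hearts, and miR-6367 and miR-6394, both listed at 0 in every library.

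Levels of the members spanned 5 orders of magnitude, and their order was nearly fixed. miR-99a-5p ranked 3 among all names and was 6.60 to 9.09 times as abundant as miR-100-5p, in rank 16. miR-100-5p was 2.13 to 2.97 times miR-99b-5p. miR-99b-5p and miR-125b-5p, in ranks 23 and 24, were not separated, with miR-99b-5p higher in 3 libraries and miR-125b-5p in the other 3. miR-125b-5p was 2.07 to 3.45 times miR-125a-5p, which was 20.6 to 33.8 times miR-99b-3p. miR-125a-3p and miR-99a-3p came last.

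**Figure D1:**
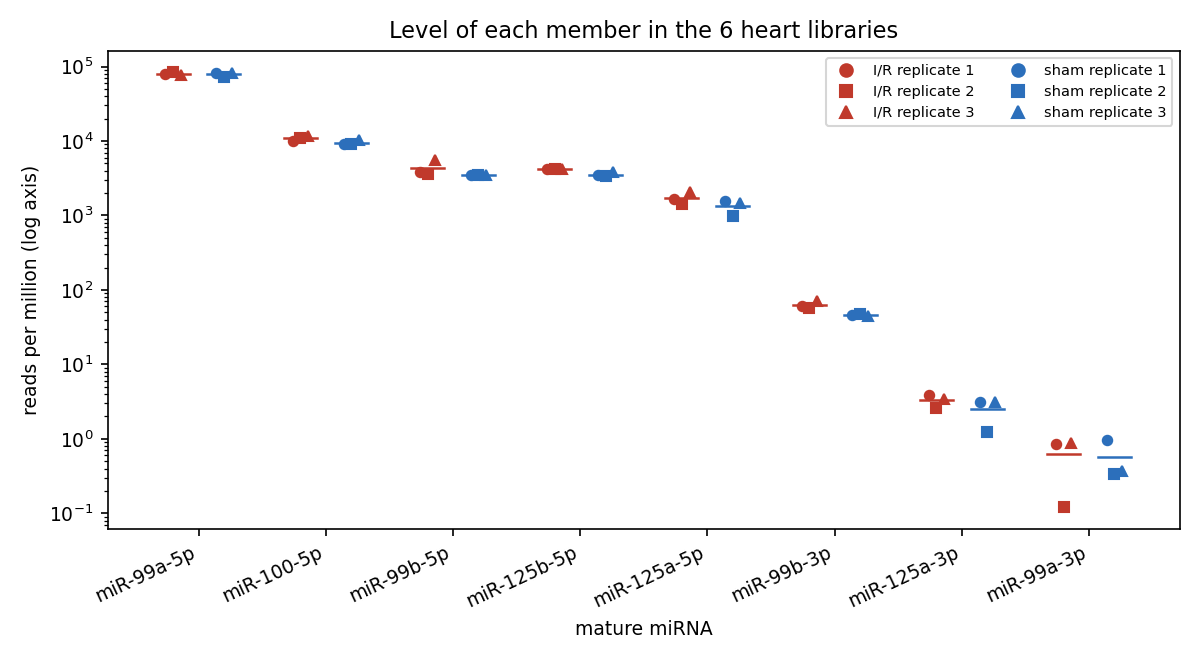
Level of each of the 8 members in RPM on a log axis, with 1 point per library (I/R in red, sham in blue, marker shape for the replicate number) and a bar at the group mean. miR-99a-5p is at 73035 RPM or more in all 6 libraries, while miR-99a-3p, from the same hairpin, stays below 1 RPM.

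The central comparison asked whether the families differ after I/R. None of the 7 members with enough reads passed the test, and all 7 fold changes were positive, although that of miR-99a-5p turned negative under median-ratio scaling, without the 10 most abundant names and in edgeR and DESeq2. Testing required a mean of 1 RPM or more and reads in 3 or more of the 6 libraries, which kept 409 names and left out miR-99a-3p. The test was limma on log2(RPM + 1), two-sided, with Benjamini-Hochberg adjustment over the 409 names and a threshold of 0.05. Up to a constant this is log2(signal + 43.5), where 43.5 is the deposited signal of 1 RPM. limma called 0 of 409 (0%), and so did edgeR, while DESeq2 called 2 (0.489%), neither of them a member. Before adjustment, a p under 0.05 was reached in limma by 29 names that were higher in I/R (7.09%) and 1 that was lower (0.244%). The size of that excess of higher names varied with the scaling and the libraries used. There were 15 higher and 12 lower names with median-ratio scaling, 11 and 15 in edgeR, and 9 and 8 in DESeq2. Quantile normalization gave 10 and 6, and totals without the 10 most abundant names gave 16 and 6. In limma there were 9 and 2 without I/R replicate 3 and 18 and 5 without sham replicate 1, with fewer hearts to test. Leaving out any other library gave 21 to 37 higher and 2 to 7 lower names. Of the 7 members, 2 were among the 29 higher names, miR-99b-3p and miR-125b-5p. In edgeR the corresponding background was 2.69% of names and the members held 1, miR-99b-3p. With the replicate number as a block, limma called 0 members and 4 of all names (0.978%), and at an unadjusted p under 0.05 in the higher direction stood 5 of 7 members and 11.7% of all names. The labels do not say that the numbers pair the hearts. The members' median log2 fold change was 0.29, against 0.10 over all 409 names, 70.2% of which were positive.

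Groups did not overlap for 3 of the 7 members, all higher in I/R. The same held for 46 of the 409 names (11.2%). The 3 members were miR-99b-5p, miR-99b-3p and miR-125b-5p. Overlap was judged on RPM alone. Other scalings, under which it was not checked, moved the median log2 fold change of all names by -0.07 to -0.11.

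mmu-miR-99b-3p, the less abundant arm of Mir99b, did not overlap between the groups. It was at 61.2, 57.0 and 71.5 RPM in I/R replicates 1 to 3, against 46.8, 47.1 and 44.1 RPM in sham replicates 1 to 3, from 357 to 563 reads per library. All 3 I/R hearts were above all 3 sham hearts. The means were 63.2 ± 7.46 RPM in I/R and 46.0 ± 1.66 RPM in sham hearts (SD, n = 3 each). The log2 fold change was 0.45 (SE 0.13, 95% interval 0.15 to 0.74), the third smallest p of the 409 names, with limma adjusted p = 0.598. Without I/R replicate 3 it was 0.36.

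mmu-miR-99b-5p, the more abundant arm of the same hairpin, rested on 1 library. It was at 3859, 3654 and 5539 RPM in I/R hearts, against 3516, 3468 and 3518 RPM in sham hearts. The sham hearts lay close together, and I/R replicate 3 stood far above the other I/R hearts. The log2 fold change was 0.29 (SE 0.14, 95% interval -0.04 to 0.61, limma adjusted p = 0.628), and 0.10 without I/R replicate 3. That library also had the highest sum of the smooth muscle markers miR-143-3p and miR-145a-5p. It was 49773 RPM, against 41127 and 41658 RPM in the other I/R hearts and 35566 to 46739 RPM in sham hearts. The sum of the endothelial markers miR-126a-3p and miR-126a-5p was highest there too, at 31830 RPM. The other I/R hearts were at 25829 and 26885 RPM, and sham hearts at 24893 to 27478 RPM. Nearly all of each sum was 1 name, miR-143-3p (49735 RPM) or miR-126a-3p (31326 RPM). The partner names were not highest in that library. miR-145a-5p was at 37.85 RPM, against 39.65 and 41.82 RPM in the other I/R hearts, and miR-126a-5p at 504.2 RPM, against 479.9 and 511.1 RPM. I/R replicate 3 had the lowest cardiac muscle sum, 357828 RPM, of which miR-1a-3p made up 351573 RPM. The part of these cell types in the miR-99b-5p value was not tested.

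mmu-miR-125b-5p, which is made from both the chromosome 9 and the chromosome 16 cluster, showed the tightest I/R values. It was at 4153, 4157 and 4206 RPM in I/R hearts, against 3441, 3353 and 3832 RPM in sham hearts. The I/R hearts lay close together and above every sham heart. The means were 4172 ± 29.3 RPM in I/R and 3542 ± 255 RPM in sham hearts (SD, n = 3 each). The log2 fold change was 0.24 (SE 0.08, 95% interval 0.06 to 0.42), the sixth smallest p, with limma adjusted p = 0.598.

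The 3p arms of the miR-125b hairpins differ in sequence and so tell the loci apart. miR-125b-1-3p, from chromosome 9, was at 30.5, 24.2 and 29.7 RPM in I/R hearts, against 18.8, 25.3 and 22.5 RPM in sham hearts. miR-125b-2-3p, from chromosome 16, was at 61.7, 58.7 and 65.9 RPM in I/R hearts, against 50.9, 60.6 and 56.3 RPM in sham hearts. Both overlapped between groups, with log2 fold changes of 0.33 (SE 0.16) and 0.15 (SE 0.13) and limma adjusted p of 0.598 and 0.694. The chromosome 9 arm made up 33.1%, 29.2% and 31.1% of the 3p reads of miR-125b in I/R hearts and 27.0%, 29.5% and 28.5% in sham hearts. Its 95% Wilson intervals ran from 25.9% to 36.5% over the I/R libraries and from 23.7% to 32.8% over the sham libraries, bounds that cover counting error only. The share averaged 31.1 ± 1.93% in I/R and 28.3 ± 1.25% in sham hearts (SD, n = 3 each), and the groups overlapped. A two-sided exact permutation test over the hearts, added after the values were seen, gave p = 0.2, where the smallest it allows is 0.1.

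mmu-miR-100-5p, from the chromosome 9 cluster, was at 9844, 10857 and 11793 RPM in I/R hearts, against 9057, 9196 and 10195 RPM in sham hearts. The lowest I/R heart lay below the highest sham heart. The log2 fold change was 0.19 (SE 0.09, 95% interval -0.01 to 0.39, limma adjusted p = 0.598). The other arm of its hairpin, miR-100-3p, had 0 to 9 reads per library and was not tested.

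mmu-miR-99a-5p, the most abundant member, was level between the groups. It was at 80514, 83193 and 77882 RPM in I/R hearts, against 82340, 73035 and 82346 RPM in sham hearts. Sham replicate 2 was the lowest of the 6, and the other sham hearts lay inside the I/R range. The log2 fold change was 0.03 (SE 0.06, 95% interval -0.12 to 0.17, limma adjusted p = 0.893). Its sign turned without sham replicate 2, to -0.033, and under median-ratio scaling, to -0.078.

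mmu-miR-125a-5p, whose hairpin overlaps a Spaca6 exon, was at 1650, 1422 and 2034 RPM in I/R hearts, against 1564, 972 and 1490 RPM in sham hearts. Sham replicate 2 lay far below the rest, and the other sham hearts fell within the I/R range. The log2 fold change was 0.36 (SE 0.19, 95% interval -0.08 to 0.80, limma adjusted p = 0.628). It was 0.14 without sham replicate 2 and 0.22 without I/R replicate 3. Among sham hearts, replicate 2 also had the highest sums of smooth muscle markers (46739 RPM, against 35566 and 38045 RPM) and endothelial markers (27478 RPM, against 24893 and 25770 RPM). Its fibroblast (1821 RPM), leukocyte (102.5 RPM) and brain (131.9 RPM) markers were the highest of the sham hearts as well. The muscle marker miR-133a-3p was at 1798 RPM there, against 901.6 and 992.5 RPM. The cardiac muscle sum and the liver marker were lowest there, and the red blood cell sum lay between. In I/R replicate 3, the highest smooth muscle and endothelial sums went with the highest miR-125a-5p value, 2034 RPM. The part of these cell types in the miR-125a-5p value was not tested.

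The 3p arms of miR-125a and miR-99a had few reads. miR-125a-3p had 32, 21 and 27 reads in I/R hearts, or 3.90, 2.57 and 3.43 RPM, against 29, 11 and 25 reads in sham hearts, or 3.15, 1.24 and 3.09 RPM. The groups overlapped, with the low value again in sham replicate 2. Its log2 fold change was 0.34 (SE 0.28, limma adjusted p = 0.687), and 0.05 without that library. miR-99a-3p had 7, 1 and 7 reads in I/R hearts and 9, 3 and 3 reads in sham hearts. Over each group that is 0.619 RPM in I/R (95% exact Poisson interval 0.346 to 1.02) and 0.574 RPM in sham hearts (0.321 to 0.946), intervals that cover counting error only.

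**Figure D2:**
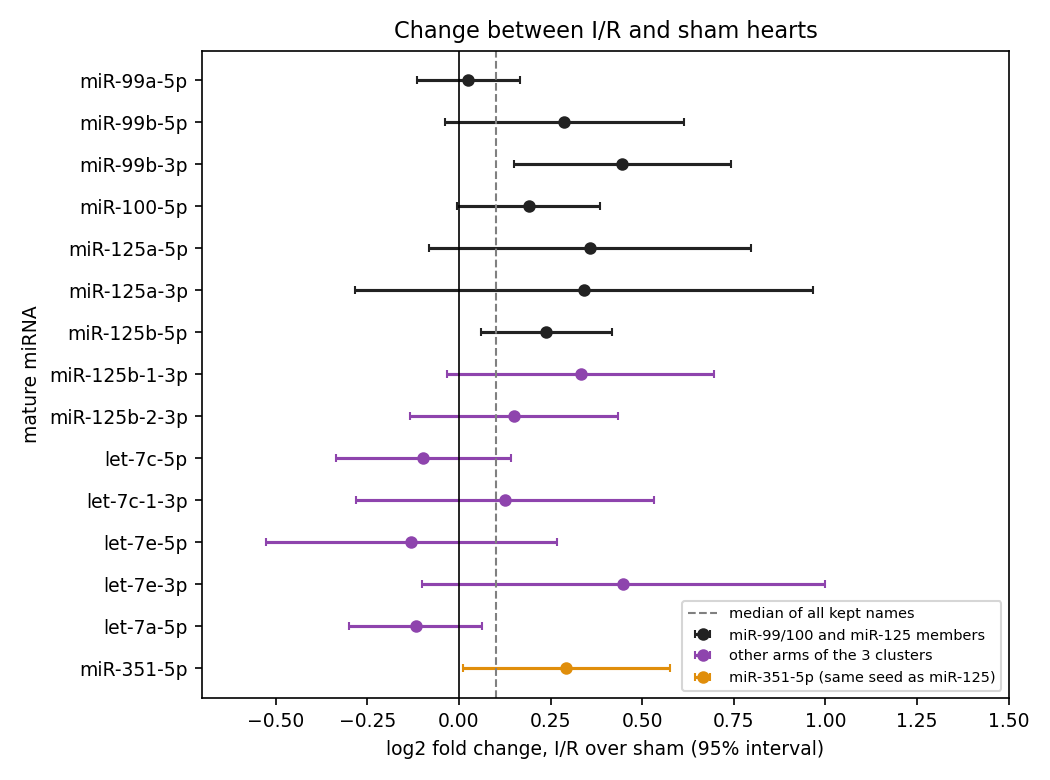
Log2 fold change of I/R over sham with its 95% interval for the 7 tested members (black), 7 other arms of the same clusters (purple) and miR-351-5p (orange). The solid line marks no change and the dashed line the median of all 409 tested names, 0.10. Intervals of miR-99b-3p, miR-125b-5p and miR-351-5p lie above 0, and none of these passed after adjustment.

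Of the 9 other arms in the 3 clusters, 7 were tested. In limma 0 of them passed and 0 had an unadjusted p under 0.05. Their median log2 fold change was 0.13, with 4 of 7 positive. let-7a-5p, which the chromosome 9 cluster shares with other loci, was at 1804, 1808 and 1723 RPM in I/R hearts, against 1952, 1997 and 1844 RPM in sham hearts. It was the one tested cluster arm whose groups did not overlap, lower in I/R, as for 16 of 409 names (3.91%), with a log2 fold change of -0.12 (SE 0.08, limma adjusted p = 0.661). let-7c-5p, made beside Mir99a and also on chromosome 15, had a log2 fold change of -0.10 (SE 0.11, limma adjusted p = 0.792). Without sham replicate 2, its log2 fold change was 0.0065 and that of mmu-let-7e-5p was 0.067, against -0.13 for mmu-let-7e-5p with all libraries. miR-351-5p was higher in I/R without overlap, with a log2 fold change of 0.29 (SE 0.12) and limma adjusted p = 0.598.

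The chromosome 17 cluster did not move as a unit in the library that stood apart among the sham hearts. Against the sham mean on the log2(RPM + 1) scale, sham replicate 2 was at -0.43 for miR-125a-5p, -0.58 for miR-125a-3p and -0.54 for let-7e-3p. In the same library let-7e-5p was at 0.39, while miR-99b-5p was at -0.01 and miR-99b-3p at 0.04. In I/R replicate 3 the pattern differed, with 0.66 for miR-99b-5p, 0.63 for miR-99b-3p, 0.63 for miR-125a-5p and 0.62 for let-7e-3p, but -0.13 for let-7e-5p. The arms of miR-125a moved to the same side as each other in both libraries, and those of let-7e to opposite sides. let-7e-3p rested on 43 reads in sham replicate 2. let-7c-5p and let-7a-5p lay on the same side as let-7e-5p, at 0.21 and 0.05 in sham replicate 2 and -0.14 and -0.16 in I/R replicate 3. Whether reads of other let-7 names entered the let-7e-5p values, and so its ratios, was not tested.

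**Figure D3:**
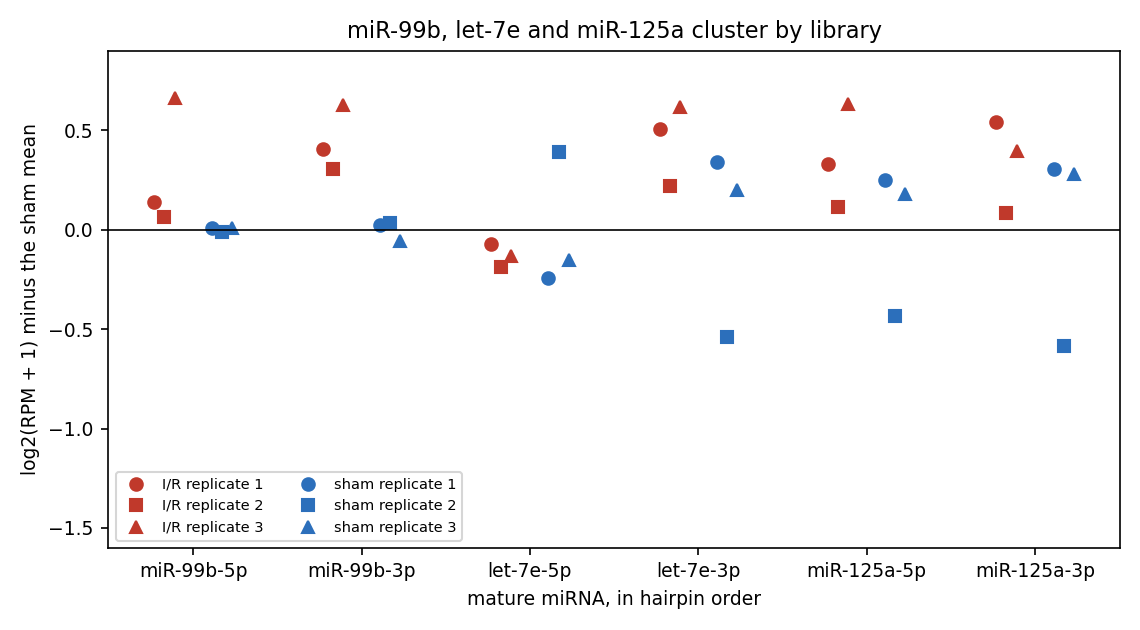
Level of each arm of the miR-99b, let-7e and miR-125a hairpins, as log2(RPM + 1) minus the mean of the sham hearts, with 1 point per library (I/R in red, sham in blue). Sham replicate 2 (blue square) is low for let-7e-3p and both miR-125a arms and high for let-7e-5p, and I/R replicate 3 (red triangle) is high for both miR-99b arms.

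Arm balance is the level of the 5p strand of a hairpin relative to its 3p strand. It was fitted with limma on the log2 ratio of the arms in the 94 precursors with both arms kept, of which 0 passed (0%) and 6.38% had an unadjusted p under 0.05. For miR-99b there were 63.0, 64.1 and 77.5 5p reads per 3p read in I/R hearts, against 75.2, 73.6 and 79.8 in sham hearts. I/R replicate 3 fell among the sham hearts, and the log2 change was -0.16 (SE 0.14, limma adjusted p = 0.837). It was -0.25 without I/R replicate 3 and -0.10 without I/R replicate 1. For miR-125a there were 423, 554 and 593 5p reads per 3p read in I/R hearts, against 496, 782 and 483 in sham hearts. The log2 change was 0.02 (SE 0.15, limma adjusted p = 0.967), and it turned to -0.092 without I/R replicate 3. miR-99a was the most one-sided, with 84151 or more 5p reads for each 3p read in every library, and was not tested since its 3p arm fell below the filter.

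Ratios between members do not depend on how a library is scaled. For 9 pairs that share a seed or a cluster, log2 ratios were compared with a two-sided exact permutation test, which cannot give a p below 0.1 with 3 hearts in each group. All 9 pairs overlapped between the groups, with exact p of 0.2 to 0.9 and adjusted p of 0.675 to 0.9. miR-100-5p was 5.45 to 6.84 times let-7a-5p in I/R hearts, against 4.60 to 5.53 times in sham hearts, a log2 difference of 0.31 (exact permutation p = 0.2, adjusted p = 0.675). Only the lowest I/R ratio fell below the highest sham ratio. miR-99a-5p was 8.18, 7.66 and 6.60 times miR-100-5p in I/R hearts, against 9.09, 7.94 and 8.08 times in sham hearts (log2 difference -0.16, exact permutation p = 0.3, adjusted p = 0.675). That difference was -0.078 without I/R replicate 3 and -0.10 without sham replicate 1. miR-125a-5p was 0.397, 0.342 and 0.484 times miR-125b-5p in I/R hearts, against 0.455, 0.290 and 0.389 times in sham hearts (log2 difference 0.12, exact permutation p = 0.6, adjusted p = 0.9). It was -0.011 without I/R replicate 3 and -0.059 without sham replicate 2. Between hearts of the same number, miR-100-5p to let-7a-5p was higher in I/R in 3 of 3 pairs (log2 differences 0.23, 0.38 and 0.31) and miR-99a-5p to miR-100-5p was lower in 3 of 3 (-0.15, -0.052 and -0.29). The paired exact permutation test gave p = 0.25 for both, the smallest it allows with 3 pairs, and 0.5 to 1 for the other ratios.

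The closest hairpins did not give the steadiest ratios. miR-99b-5p was 2.34, 2.57 and 2.72 times miR-125a-5p in I/R hearts, against 2.25, 3.57 and 2.36 times in sham hearts, although their hairpins are 554 bases apart. miR-100-5p was 2.37 to 2.80 times miR-125b-5p in I/R and 2.63 to 2.74 times in sham hearts, with hairpins 50.4 kb apart and miR-125b-5p also made on chromosome 16. miR-125a-5p was 27.6, 25.7 and 35.5 times let-7e-5p in I/R hearts, against 29.4, 11.8 and 26.3 times in sham hearts. The low ratio is that of sham replicate 2, and the log2 difference of 0.49 between the groups was 0.075 without it.

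**Figure D4:**
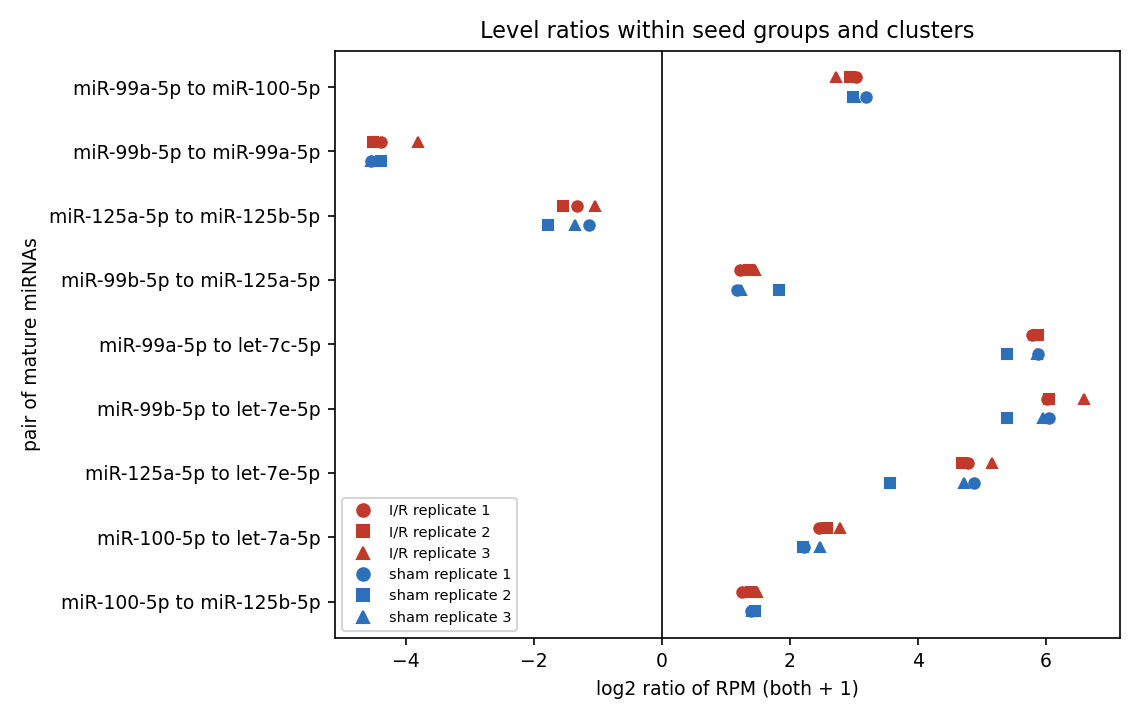
Log2 ratio of the level of 9 pairs of miRNAs in each library (1 added to both RPM values), with I/R in red above sham in blue for each pair. The groups overlap in every pair, and sham replicate 2 (blue square) lies apart in the ratios with let-7c-5p, let-7e-5p and miR-125a-5p.

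The names that kept the most constant ratio to each 5p member were found among 113 other names with a mean of at least 100 RPM, by the SD of the log2 ratio over the 6 libraries. For miR-99a-5p they were miR-26a-5p (SD 0.05), miR-30f (SD 0.05) and miR-30c-5p (SD 0.05). Of the names from its own cluster, miR-125b-5p ranked 38 (SD 0.13) and let-7c-5p ranked 73 (SD 0.19). Both are also made elsewhere, let-7c-5p on chromosome 15 and miR-125b-5p on chromosome 9. For miR-100-5p they were miR-27a-3p (SD 0.07), miR-152-3p (SD 0.08) and miR-125b-5p (SD 0.08), the one cluster partner among the first 3 of any member. For miR-125b-5p they were miR-361-3p, miR-25-3p and miR-27b-3p (SD 0.07 to 0.08), with miR-100-5p in rank 4. For miR-99b-5p they were miR-151-3p (SD 0.07), miR-146a-5p (SD 0.11) and miR-195a-3p (SD 0.11), with miR-125a-5p in rank 57 (SD 0.25). For miR-125a-5p they were miR-1964-3p (SD 0.10), miR-1843b-3p (SD 0.10) and miR-674-3p (SD 0.13), with miR-99b-5p in rank 16. The share of miR-99a-5p in its sum with miR-30f did not differ between libraries by a chi-square test of the reads (p = 0.106), the one such case among 535 pairs of a 5p member with a name of at least 1000 reads on average. That test treats reads, not hearts, as the units, was not adjusted over the 535 pairs, and depends on the read counts of both names. It gives no sign of a special link between these names. The points share their 6 libraries, and abundant names have small SDs partly because their counts are large.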

How the data were processed

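Small RNA was measured in 3 I/R and 3 sham mouse hearts. Titles name miRNA-seq, while the labels' protocols name kits for poly(A) mRNA. The submitters' processing notes list fastp 0.23.0, bcl2fastq 2.19.1.403 and the build mm10. An aligner and a miRNA annotation were not given in the sources used here. The table's deposited signal, called FPKM in its name, has equal column totals, and each value is a whole multiple of the column's smallest value above 0, as reads per 1000000 divided by a constant 23 nt would be. Division by that step gave whole reads for 100% of values (tolerance 0.01 reads), and levels were computed from these as RPM; a limit of 3 reads was 0.326 to 0.381 RPM.

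log2(RPM + 1) values from the recovered reads were tested with limma 3.58.1 (mean-variance trend) in R 4.3.3. The fit was checked on simulated data whose planted changes were far larger than those of the members. That check does not cover changes as small as theirs. Count models on the recovered reads, edgeR 4.0.16 and DESeq2 1.42.0, were alternatives and called 0 and 2 of 409 names. Exact permutation tests used scipy 1.17.1. Within each group every pair of libraries differed by more than sampling noise (chi-square per degree of freedom 34.7 to 138). Deviations from the group means had correlations of 0.14, 0.28 and 0.16 between same-numbered libraries, and -0.19 to 0.069 between the others. These are weak, and centring on 3 libraries ties them to each other, so they cannot establish a pairing. The labels do not give one, and the block and the paired tests were run as alternatives only. Named miRNAs were the members, the other arms of their clusters, miR-351 and the 3 names with the steadiest ratio to each 5p member. Members and lists were chosen with earlier results of these data known.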

Additional observations from a re-analysis of the deposited data

How the results depend on the processing

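With the replicate number as a block, limma called 4 of 409 names, 0 of them members (members' adjusted p 0.171 to 0.893). The block changed no call of a member. Across the 20 alternatives 0 members were called, as were 0 member hairpins for arm balance where it was refitted, and the log2 fold changes of miR-99b-5p (0.10 to 0.40), miR-99b-3p (0.31 to 0.52), miR-100-5p (0.07 to 0.26), miR-125a-5p (0.14 to 0.48), miR-125a-3p (0.05 to 0.49, 19 alternatives) and miR-125b-5p (0.07 to 0.30) kept their sign. The exact tests of the ratios cannot reach 0.05 under any alternative. The median of all names moved by -0.10, -0.11, -0.07, -0.11 and -0.09 with median-ratio scaling, quantile normalization, totals without the 10 most abundant names, edgeR and DESeq2.

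miR-99a-5p changed sign to -0.078, -0.046, -0.0068, -0.091 and -0.075 with median-ratio scaling, totals without the 10 most abundant names, array weights, edgeR and DESeq2, and to -0.090 in edgeR with the replicate block (added after seeing the data). Quantile normalization gave 0, which it does by construction for a name of the same rank in every library. Single libraries left out gave -0.033 to 0.054. The miR-125a arm ratio turned to -0.12 with 0.1 times the pseudocount, and ran from -0.092 to 0.13 with libraries left out. The summed miR-99/100 seed, a log2 ratio of 0.054, moved to -0.050 with median-ratio scaling and -0.017 with totals without the 10 most abundant names. With libraries left out, log2 differences ran from -0.059 to 0.27 for miR-125a-5p to miR-125b-5p, -0.19 to 0.14 for miR-99b-5p to miR-125a-5p, -0.039 to 0.20 for miR-99a-5p to let-7c-5p and -0.11 to 0.015 for miR-100-5p to miR-125b-5p, and those of miR-99b-5p to miR-99a-5p (0.26) and to let-7e-5p (0.42) fell to 0.052 without I/R replicate 3 and 0.21 without sham replicate 2. The cause was not tested. Depth limits miR-99a-3p and miR-125a-3p.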
